A study of Arabidopsis thaliana with 24 samples.

Results

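The interval from 3 h to 6 h on dexamethasone was examined in root meristems of Arabidopsis thaliana. The 3 arrays titled 6 h were compared with the 3 arrays titled 3 h, gene by gene, so 6 of the 24 arrays of the time course carry the comparison. All arrays came from Col-0 seedlings aged 4 days that held the paired constructs pRPS5A::TMO5:GR and pRPS5A::LHW:GR, called dGR, and every seedling was moved to medium with dexamethasone. The groups used are 0, 3, 4, 5 and 6 h, each with 3 arrays; 0.5, 1 and 2 h entered the shared estimate of the spread and no contrast. The RPS5A promoter is active in dividing cells in general and not in vascular cells alone. The 0 h arrays are the start of the course, with no time on the steroid; seedlings moved for as long without it, or without the constructs, were not analysed here. A difference between 6 h and 3 h therefore holds the steroid, the time since transfer and the time of day together, and these cannot be told apart.

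TMO5 and LHW belong to the basic helix-loop-helix (bHLH) family of transcription factors and work as a pair in the young vascular tissue of the root. There they promote the cell divisions that widen the vascular bundle, in part by way of cytokinin. A fusion to the glucocorticoid receptor domain stays in the cytoplasm until dexamethasone lets it enter the nucleus. The SACL proteins, relatives of SAC51, compete with TMO5 for binding to LHW. DOF2.1, named in the title of the series, is a DOF family transcription factor.

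Values are log2 expression on an RMA scale, where a difference of 1 is a 2-fold difference, for 16552 genes. The number of arrays limits the precision. Array medians were 3.97 to 4.01 for the 3 h group and 3.99 to 4.00 for the 6 h group. Array 3 of 3 h stood apart on the first principal component of all 24 arrays, at 17.63, where the other arrays of 3 h lay at 8.17 and 7.69 and the arrays of 6 h from 11.1 to 13.8. Array 3 was also the highest of its group on this component at every other time from 0 h to 5 h, but not at 6 h. Without array 3 of 3 h, 9 genes were called between 3 h and 6 h in place of 7, with 4 of the 7 among them, the F test below called 7 in place of 4, and 5 of the response genes below were called in place of 4. No label says whether the repeats were grown as separate cultures. If they were not, p-values reflect array-to-array spread, possibly technical. Of 6 markers of the root stem cell niche fixed in the marker lists, BBM alone had a probe set with a single name. The labelled tissue could thus be checked against that 1 gene of the niche only, whose mean was 4.93 at 3 h and 5.19 at 6 h. Markers of other cell types gave signal too. At 3 h the root hair markers EXPA7 and EXPA18 had means of 8.81 and 7.52, and the shoot marker RCA had 5.23. The phloem markers OPS and CLE45 had 4.67 and 2.36. Which tissues the samples held was not tested.

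Few genes passed the test between 3 h and 6 h, and the test can miss small changes. On simulated data it recovered 39.7% of log2 changes of 0.5 and 89.6% of changes of 1. In a linear model fitted to all 24 arrays with limma, 7 of 16552 genes, or 0.0423%, passed a Benjamini-Hochberg adjusted p under 0.05 between 3 h and 6 h (a called gene below). MSRB6, a methionine sulfoxide reductase gene, was the 1 rise (0.00604%), and the 6 falls (0.0362%) were AT1G54950, AT5G40590, AT5G48430, AT2G48080, EXPA15 and AT1G68390. EXPA15 encodes an expansin, a protein that loosens the cell wall. The other 5 falling genes have no name or description in the annotation used here. The changes ran from a fall of 2.18 to a rise of 1.00 on the log2 scale. At an unadjusted p under 0.05 there were 928 genes (5.61%), 451 of them higher (2.72%) and 477 lower (2.88%) at 6 h. The 3 arrays of 6 h lay all above the 3 of 3 h for 1002 genes (6.05%) and all below for 1048 (6.33%), together 2050 (12.4%).

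The steps within the interval gave fewer calls still. From 3 h to 4 h limma called 1 gene (0.00604%), AT1G54950. From 4 h to 5 h and from 5 h to 6 h it called 0 genes (0%), with 688 and 582 genes at an unadjusted p under 0.05. The moderated F test over 3, 4, 5 and 6 h called 4 genes (0.0242%), which were AT1G54950, AT5G40590, MSRB6 and AT1G27020. AT1G27020 had 4.42, 4.62 and 4.03 at 3 h, 3.45, 3.56 and 3.48 at 6 h and a mean of 2.90 at 0 h, and its difference of -0.86 between 6 h and 3 h missed the threshold. For comparison, the 3 hours from 0 h to 3 h, which share the 3 h arrays, gave 579 called genes (3.5%), 386 rises (2.33%) and 193 falls (1.17%). The median size of a gene's difference was 0.148 from 0 h to 3 h and 0.100 from 3 h to 6 h. For the single steps after 3 h it was nearly as large, at 0.0991, 0.0962 and 0.0925. Differences of at least 1 were seen in 98 genes over the first interval and in 16 over the second. The 0 h arrays had the widest spread, with a median SD of 0.18 beside 0.142 at 3 h and 0.133 at 6 h. An SD of at least 0.7 was found for 140 genes at 0 h. How much of these sizes is spread between arrays was not tested.

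AT1G54950 fell most. Its log2 values were 2.94, 3.72 and 3.498 at 3 h against 1.36, 0.98 and 1.29 at 6 h. Every array of 3 h lay well above every array of 6 h. The change was -2.18 ± 0.24 (SE; 95% interval -2.67 to -1.68; limma adjusted p = 0.000181). The mean had been 1.26 at 0 h, and it was down to 1.87 by 4 h and to 1.27 by 5 h. The log2 difference between 6 h and 0 h was -0.05 (limma adjusted p = 0.943). The means at 0 h and 6 h were near the low end of the scale, where 6.09% and 6.66% of genes lay lower, against 46.8% at 3 h. Whether the gene was above background at 0 h and 6 h was not tested. The call was lost only in the fit of the 6 arrays alone, where the limma adjusted p was 0.0718, and over all 15 alternatives it ran from 9.97e-06 to 0.0718.

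**Figure D1:**
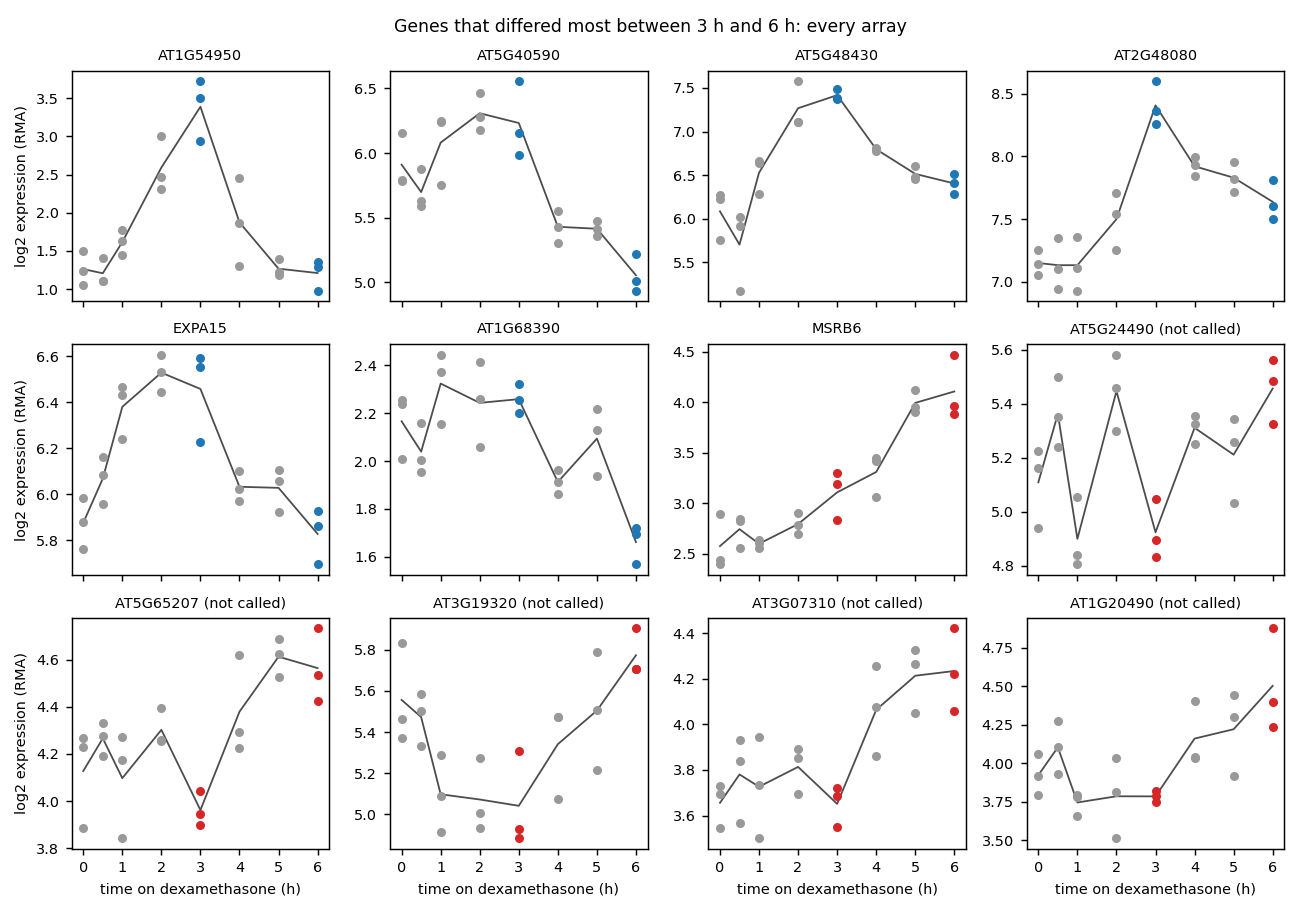
Log2 expression (RMA, y axis) of 12 genes in every array against time on dexamethasone in hours (x axis). Coloured points are the 3 arrays of 3 h and of 6 h (blue where 6 h is lower, red where it is higher), grey points the arrays of other times, and the line joins the means. AT1G54950 is near 1.26 at 0 h, 3.39 at 3 h and 1.21 at 6 h, while MSRB6 has its highest mean, 4.11, at 6 h; the last 5 panels did not pass the test.

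AT5G40590 had log2 values of 6.16, 6.56 and 5.98 at 3 h and then 5.22, 5.01 and 4.94 at 6 h. The arrays did not overlap. It fell by 1.18 ± 0.15 (SE; limma adjusted p = 0.00155, and from 9.99e-05 to 0.226 over 15 alternatives, above 0.05 only with the 6 arrays alone). Its mean was 5.91 at 0 h, and at 6 h it lay 0.86 below 0 h (log2 difference -0.86, limma adjusted p = 0.00258). At 6 h it was thus below its level at 0 h.

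AT5G48430 and AT2G48080 had risen by 3 h and were lower again at 6 h. AT5G48430 had values of 7.37, 7.49 and 7.39 at 3 h against 6.29, 6.52 and 6.41 at 6 h, with a mean of 6.09 at 0 h. AT2G48080 had values of 8.36, 8.26 and 8.60 at 3 h and then 7.60, 7.81 and 7.500 at 6 h, with a mean of 7.15 at 0 h. Neither gene's arrays overlapped between the times. AT5G48430 fell by 1.01 ± 0.18 (SE) and AT2G48080 by 0.77 ± 0.14 (SE), each with a limma adjusted p of 0.0481. At 6 h AT2G48080 was still 0.49 above 0 h (limma adjusted p = 0.0492), and AT5G48430 was 0.32 above (adjusted p = 0.386). Both calls were near the threshold. Both were lost in the fit of the 6 arrays alone, and that of AT2G48080 in the fit of the 12 arrays of 3 to 6 h. That of AT5G48430 was lost without any 1 of the 6 arrays, and that of AT2G48080 without any 1 of them other than array 2 of 6 h; over 15 alternatives the limma adjusted p ran from 0.00145 to 0.209 and from 0.00541 to 0.297.

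EXPA15 had log2 values of 6.59, 6.55 and 6.23 at 3 h against 5.69, 5.93 and 5.86 at 6 h, without overlap. It fell by 0.63 ± 0.11 (SE; limma adjusted p = 0.0335). Its mean was 5.87 at 0 h, and the log2 difference between 6 h and 0 h was -0.05 (adjusted p = 0.873). AT1G68390, a gene of low signal, had values of 2.25, 2.32 and 2.202 at 3 h and then 1.70, 1.72 and 1.57 at 6 h. It fell by 0.60 ± 0.11 (SE; limma adjusted p = 0.0483), from a level close to its mean of 2.17 at 0 h. The call of EXPA15 was lost in the fits of 6 and of 12 arrays, without array 1 or 2 of 3 h and without array 1 or 3 of 6 h (limma adjusted p from 0.00620 to 0.415 over 15 alternatives). That of AT1G68390 was lost in 11 of 15 alternatives: without any 1 of the 6 arrays, in the fits of 6 and of 12 arrays, and with the trended robust variance, the second quantile normalization and the replicate block (0.00866 to 0.297 over the 15).

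MSRB6 was the 1 gene called higher at 6 h than at 3 h. Its log2 values were 3.302, 2.83 and 3.19 at 3 h against 4.47, 3.96 and 3.89 at 6 h. All arrays of 6 h lay above all arrays of 3 h. The change was 1.00 ± 0.16 (SE; 95% interval 0.66 to 1.33; limma adjusted p = 0.0240). The means were 2.58 at 0 h, 3.31 at 4 h and 3.99 at 5 h, so the gene stood higher at each of these times than at the one before. Its difference of 0.53 between 3 h and 0 h was not called (limma adjusted p = 0.0725), nor was that of 0.11 between 6 h and 5 h. MSRB6 belongs to the enzymes that reduce oxidised methionine in proteins. The call was lost in the fits of 6 and of 12 arrays and without array 2 of 3 h or array 1 of 6 h (limma adjusted p from 0.00835 to 0.307 over 15 alternatives).

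The genes next in line among the higher ones did not pass the test. AT5G24490, with values of 4.83, 4.89 and 5.05 at 3 h and then 5.33, 5.48 and 5.56 at 6 h, and AT5G65207, with 3.90, 3.94 and 4.04 against 4.43, 4.54 and 4.73, had log2 differences of 0.53 and 0.60 and a limma adjusted p of 0.119 each. AT3G19320, AT3G07310 and AT1G20490 had differences of 0.73, 0.58 and 0.72 (limma adjusted p = 0.175, 0.182 and 0.182). AT2G33250 and AT4G33500, raised at 4 and 5 h against 0 h, had differences of 0.54 and 0.44 (limma adjusted p = 0.273 and 0.312). In all 7 of these genes the arrays did not overlap, which also held for 6.05% of all genes in this direction.

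Arrays of 4 h and 5 h take no part in the contrast of 6 h with 3 h beyond the shared estimate of the spread. From 4 h to 5 h alone, the means of 6 of the 7 differed in the same direction as over the whole interval. Of all genes, 50.6% were higher and 49.4% lower over this step, and limma called 0. Among the 6, the step was 0.68 in MSRB6, -0.61 in AT1G54950 and -0.28 in AT5G48430. It was only -0.09 in AT2G48080, -0.02 in AT5G40590 and -0.005 in EXPA15. The exception was AT1G68390, which was 0.18 higher at 5 h than at 4 h.

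A straight line over the 12 arrays of 3, 4, 5 and 6 h, a contrast chosen once the data had been seen, called 10 genes (0.0604%), 9 of them falling (0.0544%) and 1 rising (0.00604%). AT1G54950 fell by 0.71 per hour and MSRB6 rose by 0.37 per hour on the log2 scale (limma adjusted p = 9.94e-05 and 0.00272). Beside 6 genes of the called 7, the line called 4 that had narrowly missed at 6 h against 3 h, AT1G27020, AT1G14550, AT4G32950 and AT2G43140, with slopes of -0.31, -0.36, -0.62 and -0.20 per hour. Their limma adjusted p for 6 h against 3 h was 0.0592, 0.0592, 0.0586 and 0.0803. AT4G32950 had 5.18, 4.22 and 4.72 at 3 h against 2.98, 2.85 and 2.70 at 6 h, with a mean of 3.097 at 0 h. AT1G14550 had 6.34, 7.08 and 6.89 at 3 h and then 5.70, 5.60 and 5.76 at 6 h. The mean of 5 and 6 h against that of 3 and 4 h, also added, called 3 genes (0.0181%), the rise of MSRB6 (0.00604%) and the falls of AT1G54950 and AT1G27020 (0.0121%).

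Size alone did not make a call. Of the 16 genes with a log2 difference of at least 1, 14 were lower and 2 higher at 6 h, and 3 were called. In several of the others single arrays of 3 h lay high. OSM34, an osmotin gene, had 5.27, 3.33 and 2.96 at 3 h against 2.42, 2.19 and 2.85 at 6 h. AT2G04050 had 3.97, 2.41 and 0.88 at 3 h and then 0.90, 1.05 and 1.44 at 6 h, so that its arrays overlapped. The limma adjusted p was 0.933 for OSM34 and 0.626 for AT2G04050. An SD of at least 0.7 among the 3 arrays was found for 60 genes at 3 h and for 34 at 6 h, beside median SDs of 0.142 and 0.133.

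Most genes held. Holding was tested as equivalence: the difference between 6 h and 3 h had to lie above -0.5 and below 0.5 on the log2 scale in 2 one-sided moderated tests, with the larger p adjusted over all genes. By this test 11704 genes, or 70.7%, held. The middle 90% of this comparison, from the 5th to the 95th percentile of all genes, ran from -0.29 to 0.29 with a median of 0.00. The remaining genes that neither held nor were called are undecided at this number of arrays. The count rests on the margin: at 0.3 it was 0, with 4860 genes at an unadjusted p under 0.05, and at 1 it was 16360. It also includes dim genes, which have no detection call. Without the dimmest 25% of genes, 8487 held.

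To see whether the genes of the broad response held as others did, the mean response was read from arrays outside the comparison. The mean of 4 h and 5 h against 0 h called 918 genes (5.55%), 578 higher (3.49%) and 340 lower (2.05%) than at 0 h. These 918 genes share no array between the choice and the comparison of 6 h with 3 h. Of the 578 raised genes 375 held (64.9%), and of the 340 lowered genes 211 held (62.1%), against 70.7% of all genes. The groups differ in signal, with a median level of 5.68 for raised, 5.06 for lowered and 3.76 for all genes. Whether the level bears on these shares was not tested. Of the 918, 4 were called between 3 h and 6 h, namely MSRB6, AT5G48430, AT2G48080 and AT5G40590.

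The raised genes had no common direction after 3 h in the median. Their median log2 difference from 3 h to 6 h was 0.02, beside a median response of 0.59, and 319 of 578 were higher at 6 h (55.2%, against 50.7% of all genes). Of the lowered genes, more were lower than higher at 6 h, and 1 of the 340 was called. Their median difference was -0.08 beside a median response of -0.56, and 225 of 340 were lower at 6 h (66.2%, against 49.3% of all genes). At an unadjusted p under 0.05, 48 of the 340 lowered genes were lower and 10 higher, and 42 of the 578 raised genes were higher and 21 lower. Of all 16552 genes, 2.72% were higher and 2.88% lower at this threshold. Differences of at least 0.5 were more frequent in both groups, with 4.33% of raised and 7.35% of lowered genes against 1.76% of all. Without array 3 of 3 h, 376 of the 578 raised genes were higher and 232 of the 340 lowered genes lower at 6 h; the median of all genes was then 0.00. Under the alternatives tried, without each of the 6 arrays included, the number of lowered genes that were lower at 6 h ran from 212 to 232, and the number of raised genes that were higher from 294 to 376. Fewer cells of a type and less RNA per cell cannot be told apart in such bulk samples.

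**Figure D2:**
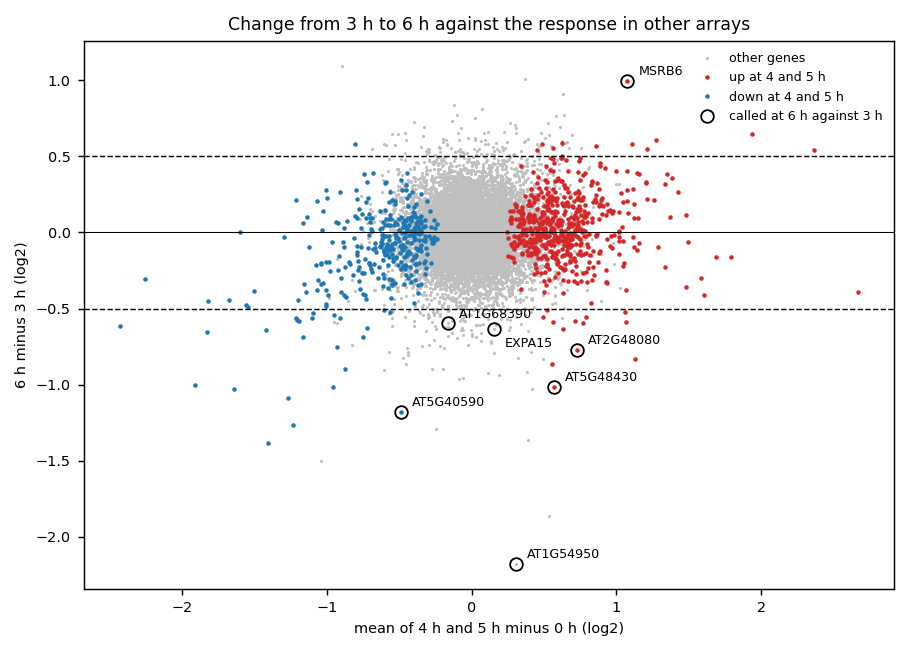
Log2 difference between 6 h and 3 h (y axis) against the log2 difference between the mean of 4 and 5 h and 0 h (x axis) for 16552 genes, one point each. Red points are the 578 genes called higher and blue points the 340 called lower at 4 and 5 h, circles mark the 7 genes called at 6 h against 3 h, and dashed lines mark the margin of 0.5. Most red and blue points lie between the dashed lines, and the blue ones lie lower at 6 h in 66.2% of cases.

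The 6 holding genes with the largest raised response were AT3G50300, AT5G67620, AT1G62975, AT5G39220, AT5G40270 and AT3G51540. AT3G50300 had a mean of 3.89 at 0 h, values of 5.42, 5.195 and 5.25 at 3 h against 5.42, 5.17 and 5.63 at 6 h. The arrays of the 2 times overlapped, and the difference was 0.12 (95% interval -0.30 to 0.53). AT5G67620, at 4.73 at 0 h, had 6.24, 6.15 and 6.26 at 3 h and then 5.96, 6.21 and 5.82 at 6 h, a difference of -0.22. AT1G62975 stood at 4.60 at 0 h, at 5.80, 5.68 and 6.32 at 3 h against at 5.89, 5.76 and 5.86 at 6 h, a difference of -0.09. In AT5G39220, AT5G40270 and AT3G51540 the differences were 0.10, -0.11 and 0.09. These genes are not named or described in the annotation used here. The interval of AT3G50300 passes 0.5 slightly, since the equivalence test is one-sided.

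The 6 holding genes with the largest lowered response were AT2G31920, AT4G22214, AT3G21670, AT4G39830, TRM25 and AT3G15534. AT2G31920 went from a mean of 5.02 at 0 h to 3.32, 3.70 and 3.80 at 3 h and then 3.75, 3.67 and 3.302 at 6 h, a difference of -0.03 (95% interval -0.41 to 0.35). AT3G21670, annotated as NPF6.4 of the NRT1/PTR transporter family, had 2.41, 2.41 and 2.76 at 3 h against 2.38, 2.54 and 2.72 at 6 h, beside 3.40 at 0 h. TRM25, a TON1 recruiting motif gene, had 5.06, 5.27 and 5.11 at 3 h and then 5.25, 4.98 and 5.02 at 6 h, beside 5.88 at 0 h. All 3 genes stayed low with overlapping arrays. The differences of AT4G22214, AT4G39830 and AT3G15534 were 0.21, -0.19 and 0.07.

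**Figure D3:**
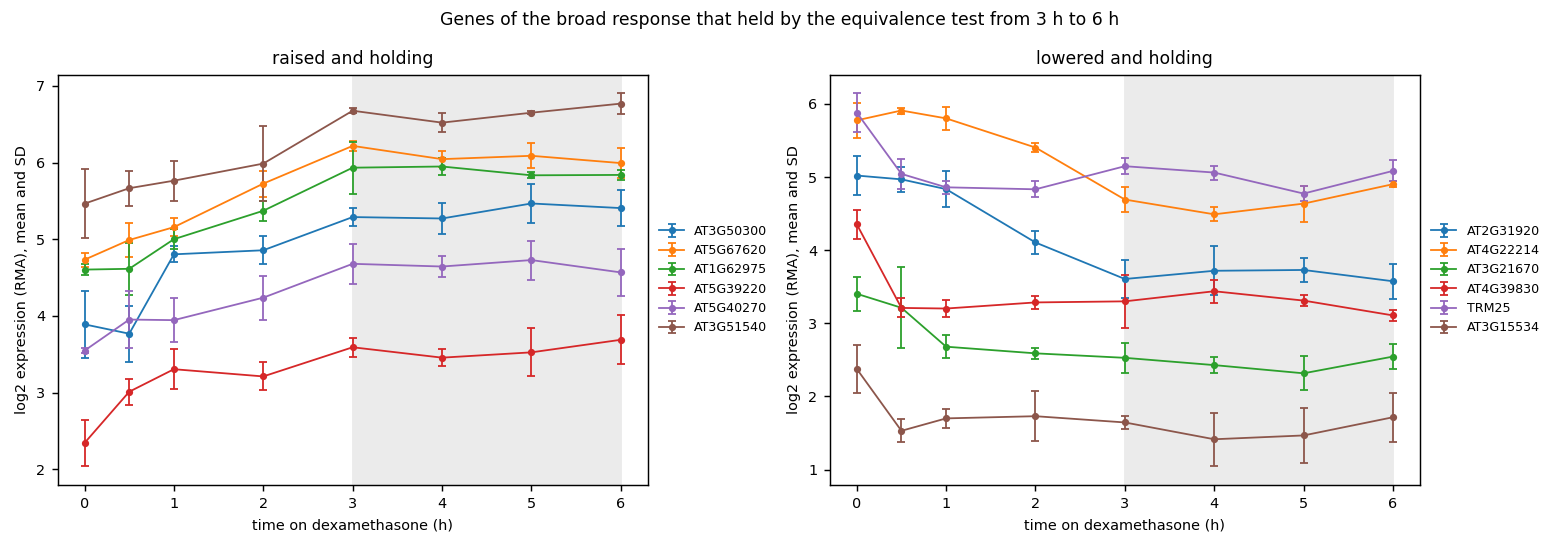
Mean log2 expression (RMA) with SD over 3 arrays (y axis) against time on dexamethasone in hours (x axis) for the 6 raised (left) and 6 lowered (right) genes with the largest response among those that held. The shaded span is 3 h to 6 h, where lines run nearly level, with differences between 6 h and 3 h from -0.22 to 0.21.

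Among the genes that the study is about, DOF2.1, LHW, SACL1 and SACL2 held, and none was called. DOF2.1 (AT2G28510) had log2 values of 7.54, 7.27 and 7.63 at 3 h against 7.35, 7.51 and 7.40 at 6 h, beside a mean of 6.32 at 0 h. The arrays overlapped, the difference was -0.06 (95% interval -0.37 to 0.25), and the gene held. LHW had 7.33, 7.11 and 7.13 at 3 h and then 7.33, 7.21 and 7.20 at 6 h and held, with a difference of 0.06. Whether its probes also detect the transgene was not tested. SACL1 (AT5G09460) and SACL2 (AT5G50010) held as well, with differences of 0.09 and 0.07. Of the 13 genes of the TMO5/LHW module list, 5 were measured, none was called, and the median difference was 0.07 against 0.00 for all genes. AT2G41130 and AT3G56770, listed as bHLH relatives of TMO5, did not hold and were not called. AT2G41130 had 4.82, 5.09 and 4.93 at 3 h against 4.63, 4.38 and 4.70 at 6 h, and AT3G56770 had 1.59, 1.70 and 1.88 against 2.04, 2.12 and 1.88. The names of DOF2.1, SACL1 and SACL2 were paired with their gene identifiers from general knowledge and not from the annotation.

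BGLU44, a beta-glucosidase gene, and ARR15, a cytokinin response regulator gene, were the strongly raised genes of these lists whose level at 6 h was not settled. BGLU44 had a mean of 2.67 at 0 h, values of 5.16, 4.68 and 4.52 at 3 h and then values of 5.08, 5.59 and 5.31 at 6 h. ARR15 had a mean of 1.99 at 0 h, 3.39, 3.17 and 2.63 at 3 h against 3.91, 3.28 and 3.83 at 6 h. In both, the arrays overlapped between the times. The differences were 0.54 ± 0.28 (SE; 95% interval -0.05 to 1.13) for BGLU44 and 0.61 ± 0.25 (SE; 0.09 to 1.13) for ARR15, with limma adjusted p of 0.928 and 0.803, and neither gene held. RR16, the other measured gene of the 30 in the cytokinin list, had a difference of 0.11.

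Whether the change from 3 h to 6 h differed from that from 0 h to 3 h was tested for each gene. A gene that returned after 3 h passes this test, and so does one that moved before 3 h and then stayed level. The arrays of 3 h enter both changes with opposite signs, so a chance height of these arrays raises one change and lowers the other, and the test allows for this in its error. It called 39 genes (0.236%), 31 with a lower (0.187%) and 8 with a higher (0.0483%) change in the second interval. All 31 had been higher at 3 h than at 0 h and were then lower, and all 8 had been lower and were then higher. The choice by this test itself favours such opposite signs, so they are no separate result. The later differences ran from -2.18 to only -0.01 in the 31 and from 0.07 to 0.48 in the 8. The medians that follow come from the same values as the choice. Over the 31 the median log2 change was 0.96 up to 3 h and -0.51 after it, and over the 8 it was -0.91 and 0.27. Of the 39, 5 were called between 3 h and 6 h, 37 between 0 h and 3 h, and 1 in neither. By the equivalence test 8 of the 31 and 2 of the 8 held from 3 h to 6 h, and these stayed within the margin after 3 h. At 6 h 15 of the 31 and 6 of the 8 still differed from 0 h at an adjusted p under 0.05. The count depends on the arrays of 3 h: without array 1, 2 or 3 of 3 h there were 21, 16 and 15 genes with a lower and 4, 1 and 1 with a higher change. Without array 1, 2 or 3 of 6 h there were 25, 23 and 24 with a lower and 3, 6 and 4 with a higher change.

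After AT1G54950 (difference of -4.30 between the intervals, limma adjusted p = 1.94e-05), the smallest p among the 31 were those of AT4G38650, ATSBT5.2 and AT2G48080. AT4G38650 had 6.03, 6.13 and 6.32 at 3 h and then 5.68, 5.60 and 5.63 at 6 h, without overlap. Its means were 4.57, 6.75, 7.54 and 7.06 at 0, 0.5, 1 and 2 h, so it stood highest at 1 h and was already lower by 3 h. At 3 h it lay 1.59 above 0 h, and its difference after 3 h was -0.52 ± 0.13 (SE), which on its own had a limma adjusted p of 0.287; the difference between the intervals was -2.11 (adjusted p = 8.51e-05). ATSBT5.2, a subtilase gene by its symbol, had 7.44, 7.499 and 7.64 at 3 h against 6.82, 7.29 and 7.22 at 6 h. Its mean was highest at 3 h. Its changes were 1.85 and -0.41, and they differed by -2.27 (limma adjusted p = 0.000126). Both genes at 6 h were still above 0 h, by 1.07 and 1.44. MYBC1, a MYB-related factor by its symbol, passed the test but held after 3 h. Its means were 4.66, 5.83, 5.99 and 5.85 at 0, 0.5, 1 and 2 h, so that it too stood highest at 1 h. It lay 0.99 above 0 h at 3 h, had 5.67, 5.502 and 5.79 there and 5.67, 5.67 and 5.58 at 6 h, and held with a difference of -0.01.

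None of the 8 genes with a higher change in the second interval was called between 3 h and 6 h. PDF2.5, a plant defensin gene, had the smallest p of them for the difference between intervals and had fallen by 0.74 from 0 h to 3 h. It had 8.23, 8.14 and 8.21 at 3 h and then 8.58, 8.44 and 8.59 at 6 h, with no overlap. The difference after 3 h was 0.34, with a limma adjusted p of 0.538 on its own, and the difference between the intervals was 1.09 (adjusted p = 0.00842). TRY, known as TRIPTYCHON, a small MYB protein with a part in epidermal cell fate, had fallen by 1.09 and differed by 0.23 after 3 h. AT4G22214 had fallen by 1.08 and then held at 0.21.

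**Figure D4:**
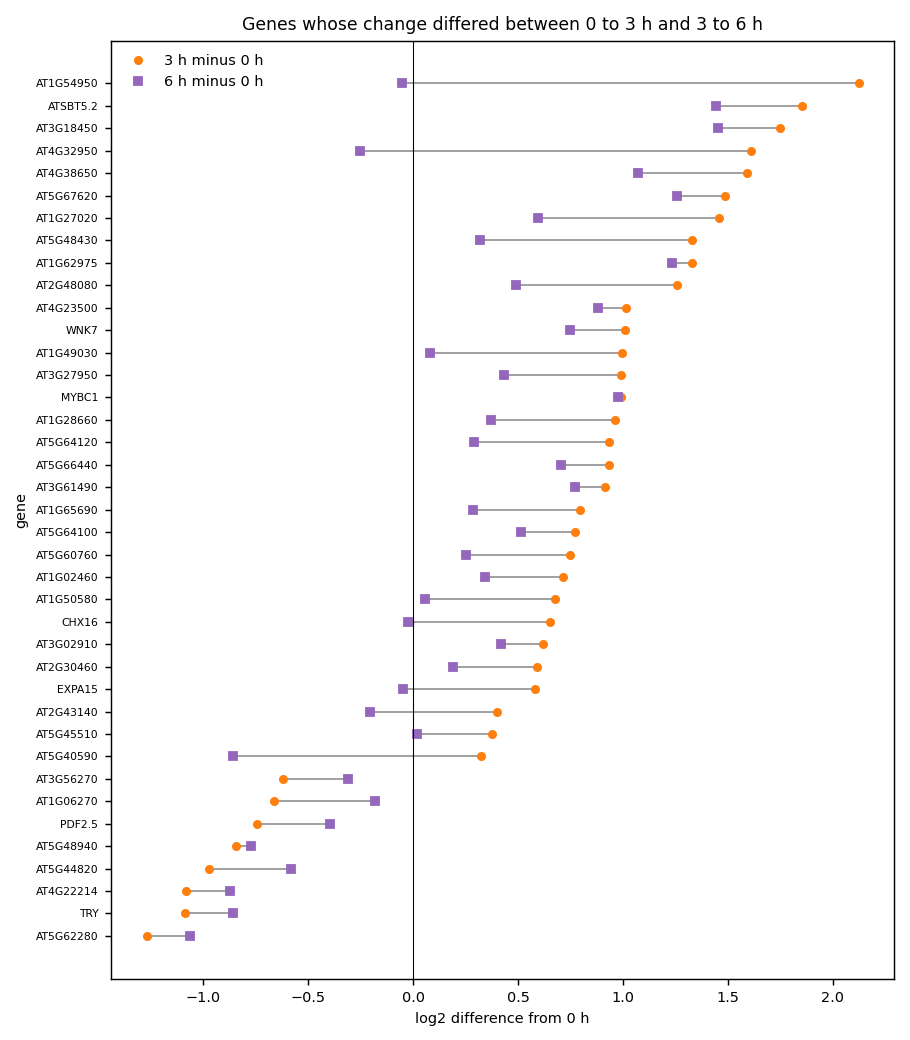
Log2 difference from 0 h (x axis) at 3 h (orange circles) and at 6 h (purple squares) for the 39 genes (y axis) whose change differed between the intervals, with a line joining both. The 31 genes that were higher at 3 h have their squares to the left of the circles, with AT1G54950 at -0.05 at 6 h, and the 8 that were lower have theirs to the right.

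Gene groups are given by their counts. Of all genes, 70.7% held, 50.7% were higher and 49.3% lower at 6 h, and 2.72% were higher and 2.88% lower at an unadjusted p under 0.05. Of 24 expansin genes 1 fell, EXPA15, 15 held and the median difference was -0.05. EXPB1, with a level of 9.51 at 3 h and 9.22 at 6 h, held at -0.29 although its arrays did not overlap. Of 10 xyloglucan endotransglucosylase genes, whose products cut and rejoin wall polymers, none was called by limma and 3 were lower at an unadjusted p under 0.05, as were 2.88% of all genes. These were XTH16, XTH33 and XTH18, with differences of -0.74, -0.59 and -0.54. XTH16 had 5.94, 5.75 and 5.77 at 3 h against 4.72, 5.12 and 5.39 at 6 h, without overlap (limma adjusted p = 0.212). The median of the 10 was -0.02.

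Of 8 class III peroxidase genes matched by symbol, 6 were lower at 6 h (49.3% of all genes) and 0 were called by limma. At an unadjusted p under 0.05, 3 were lower (2.88% of all genes), and the median of the 8 was -0.25. The match does not cover the whole family. It missed the class III peroxidase gene AT1G14550, given above for its slope, whose difference was -1.08 (limma adjusted p = 0.0592). Prx37 had 9.12, 9.08 and 9.43 at 3 h and then 8.48, 8.42 and 8.52 at 6 h. AT5G64120, annotated as PRX71, had 8.37, 8.60 and 8.50 at 3 h against 7.77, 7.98 and 7.79 at 6 h. Neither overlapped between the times, with differences of -0.74 and -0.65 and limma adjusted p of 0.153 and 0.182. Of 15 glutathione S-transferase genes 0 were called, 5 were lower and 1 higher at an unadjusted p under 0.05 (2.88% and 2.72% of all genes), and the median was -0.01. Of 26 cytochrome P450 genes 0 were called, 2 were higher and 1 lower at an unadjusted p under 0.05, and 13 held.

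Of 18 genes in the touch and wounding list 9 were measured, 7 of them lower at 6 h (49.3% of all genes), with a median of -0.21. None was called, and 0 had an unadjusted p under 0.05. AT1G76640, annotated as the calmodulin-like CML39, STZ, a zinc finger gene, and ORA47 had differences of -0.65, -0.61 and -0.58, with limma adjusted p of 0.940, 0.958 and 0.970. Of 25 auxin genes 6 were measured and 0 were called; GH3.1, an auxin-conjugating enzyme gene, had 6.32, 6.03 and 6.34 at 3 h and then 5.498, 5.94 and 5.69 at 6 h, a difference of -0.52 (limma adjusted p = 0.122). Of 32 cell division genes 4 were measured, 0 were called and 3 held, and AUR2, an Aurora kinase gene, had a difference of -0.33. Of 24 circadian clock genes only 2 were measured, GI and AT5G52660, and both held, with differences of -0.18 and -0.02.

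In the other groups no gene was called. All 9 bHLH factor genes matched by symbol held, and so did 80 of 123 genes for defensin-like and small secreted peptides, whose median was 0.00. The bHLH match does not cover the whole family. It missed AT2G41130 and AT3G56770, given above as relatives of TMO5, which did not hold. Among 8 histone genes 7 held, with a median of 0.07. Of 63 plastid-encoded genes, a list added after the data were seen, 62 held. Of the 63, 49 were higher at 6 h, against 50.7% of all genes, with a median of 0.05 against 0.00; these genes share the plastid genome and are not independent. Of 7 WRKY factor genes 0 were called, and WRKY41 had the largest difference, -0.78 (limma adjusted p = 0.787).

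**Figure D5:**
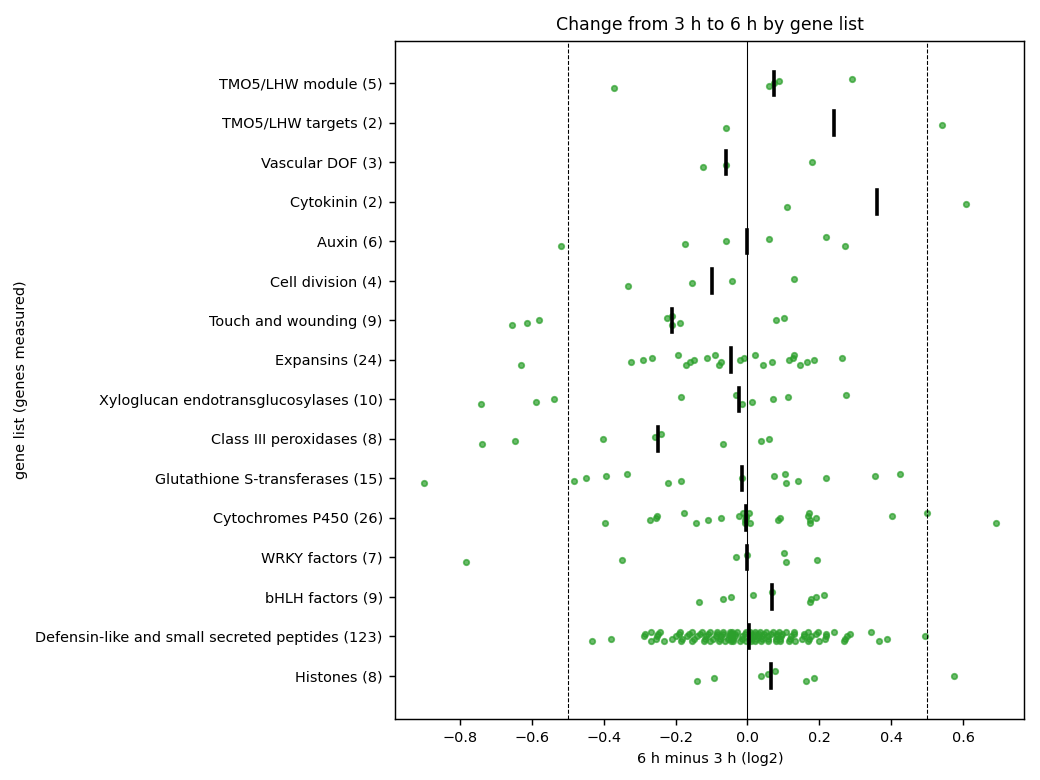
Log2 difference between 6 h and 3 h (x axis) for each measured gene of 16 lists (y axis, number of genes in brackets). Points are genes and are spread vertically only to be seen, black bars are medians, and dashed lines mark the margin of 0.5. Medians of the expansins, histones and small peptides lie between -0.05 and 0.07, and that of the class III peroxidases is at -0.25.

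No measured marker of other cell types was called by limma between the times, and 0 had an unadjusted p under 0.05. Of 6 root hair markers 2 were measured, and their summed log2 level was 16.0 to 16.8 in the 3 h arrays and 16.0 to 16.1 in the 6 h arrays; EXPA7 and EXPA18 differed by -0.16 and -0.15 and neither held. Of 11 phloem markers 2 were measured, with sums of 6.61 to 7.70 in the 3 h arrays and 6.14 to 7.18 in the 6 h arrays, and OPS and CLE45 differed by -0.22 and -0.15. Of 4 shoot markers 1 was measured, RCA, which held at 0.09, and BBM of the stem cell niche differed by 0.26 and did not hold. Genes of the xylem, root cap and endodermis lists were not analysed here. The part of cell composition in the falls after 3 h was not tested.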

How the data were processed

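RNA from root meristems was measured on Affymetrix arrays. The deposited values are log2 expression made by the authors with RMA, per the submitters' processing notes; its version and the array's build: not given in the sources used here. Because RMA equalises the distributions of arrays, a shift shared by most genes could be lost, and there are no detection calls. Of 38408 probe sets, 16746 had 1 gene in the platform annotation, 758 several and 20904 were unnamed here; 16697 were matched to RefSeq names (TAIR10.1). Where several named probe sets shared a gene (165 of 16552 genes), their mean was used.

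Groups came from the sample titles. A model of 8 group means was fitted over 24 arrays (lmFit and eBayes of limma 3.58.1, R 4.3.3), and p-values were adjusted by Benjamini-Hochberg over all genes, called under 0.05. Members and lists were chosen with earlier results of these data known. No set test was run. Families were matched by symbol or synonym. A rule for AP2/ERF factors matched unrelated genes and one for ribosomal proteins matched mainly plastid genes, so neither is given, and lists with no measured gene or of little content are not described.

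Genes were named as follows: up to 12 called genes a direction whose arrays did not overlap, filled to 6 by p; the 6 largest holding responders a direction; the 4 responders with the smallest p a direction; up to 3 per list by p; the study's genes; and 4 each by the F test and by the difference between intervals. Genes named for a size of at least 1, by the slope, or by the difference between intervals beyond those were chosen after their values were seen. The steps were tested on simulated data with known changes. Alternatives were other arrays, variance models, weights, scalings, probe set rules and margins, and the replicate block. Each of the 6 arrays of 3 h and 6 h was also left out in turn, but no array of another time.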

Additional observations from a re-analysis of the deposited data

How the results depend on the processing

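The 7 calls between 3 h and 6 h (1 rise, 6 falls) moved with the fit. The 6 arrays alone gave 0 calls (0 rises, 0 falls; limma, 1175 genes at an unadjusted p under 0.05), and the 12 arrays of 3 to 6 h gave 4 (0 rises), 3 of them among the 7. A trended robust variance gave 18 (17 falls; 6 of the 7 kept), 7 genes by the F test, 20 falling slopes, 18 positive and 53 negative differences between intervals, and 9 called responders in place of 4. Array weights gave 18 (3 rises, 15 falls; all 7 kept), with 2 rising and 17 falling slopes. Median centring gave 11 (10 falls; all 7 kept). All 38408 probe sets gave 2 (0 rises, 2 falls; 2050 at an unadjusted p under 0.05), 3 falling slopes and 53 negative differences between intervals. A margin of 0.3 left 0 holding genes. The cause of these shifts was not tested.

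Replicate numbers did not meet the bar for pairing, a correlation over 0.1 in every pair: residuals of same-numbered arrays of 3 h and 6 h correlated at 0.0451, 0.00913 and -0.00181. Those of 0 h and 3 h correlated at 0.0562, 0.0117 and 0.12, so array 3 of these times shares some deviation. With the replicate block there were 10 calls (6 of the 7 kept) with 51 negative and 11 positive differences between intervals against 31 and 8.

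Leaving out each of the 6 arrays gave from 2 to 9 calls (0 to 1 rises, 2 to 8 falls), from 1 to 7 by the F test, from 2 to 8 falling and 1 rising slopes, from 15 to 25 negative and 1 to 6 positive differences between intervals, from 9146 to 9472 holding genes and from 1 to 5 called responders. Raised genes that were higher at 6 h numbered 294 to 376 and lowered genes that were lower 218 to 232. Fewest calls, 2, came without array 1 of 6 h; without arrays 1, 2 and 3 of 3 h there were 4, 3 and 9, and without arrays 2 and 3 of 6 h 7 and 3. No result changed direction while called. Among 108 named genes the alternatives lost 37 single calls and gained 10, and 30 values changed sign where neither fit called the gene.

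No promoter sequence was examined. Values near the low end of the scale, such as those of AT1G68390, have no detection call. With 3 arrays a time, genes of wide spread were neither called nor held.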
